A study of Mus musculus with 9 samples.

Results

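The genes described here are 8 members of the tumor necrosis factor (TNF) superfamily, of 53801 genes in the count tables: the 6 ligand genes Tnf, Tnfsf9, Tnfsf12, Tnfsf13, Tnfsf13b and Tnfsf14, and Tnfrsf1a and Tnfrsf1b, which encode the receptors of TNF. They were taken by name, through their Ensembl identifiers, by a rule that names genes and uses no measured value, with earlier results of these data known. All 8 passed the filter on low counts in each of 3 comparisons. The cells were CD11b+CD45high monocytes/macrophages of male C57BL/6J mice, 9 weeks old by the series text (the study's methods give a wider range of ages), sorted as CD11c- and Ly6G- and profiled by mRNA sequencing. Sham blood was 3 libraries from mice that had the sham operation, and stroke blood was 3 libraries from mice with the left distal middle cerebral artery and the left common carotid artery permanently occluded (dMCAO). Each blood library was 1 mouse. Stroke brain was 3 libraries from dMCAO mice, each pooled from the brains of 5 mice. Stroke cells were sorted 5 days after dMCAO, and the day of the sham blood was not given in the sources used here. No sham brain was in the design, and brain cells went through enzymatic dissociation that blood cells did not. Tissue of origin, pooling and dissociation therefore cannot be told apart in any comparison of brain with blood.

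TNF is made as a membrane protein that assembles as a trimer and is shed by the protease ADAM17. TNFR1, encoded by Tnfrsf1a, carries a death domain and can start NF-kappaB signaling or cell death, whereas TNFR2, encoded by Tnfrsf1b, has no death domain and binds TRAF adaptors. Monocytes and macrophages are known as main producers of TNF, and their Tnf mRNA is short-lived because proteins such as tristetraprolin, the product of Zfp36, bind AU-rich elements in its 3′ untranslated region. Among the other ligands, Tnfsf9 encodes the ligand of the T cell costimulatory receptor CD137, Tnfsf12 encodes TWEAK, Tnfsf13 and Tnfsf13b encode the B cell survival factors APRIL and BAFF, and Tnfsf14 encodes LIGHT.

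Library totals were 18475118 to 22623578 counts, and levels are given as counts per 1000000 counts of the library (CPM). Differences were tested with the quasi-likelihood test of edgeR across all genes with Benjamini-Hochberg adjustment, and a gene was called upregulated or downregulated (a DEG) at an adjusted p below 0.05 with a fold change above 2. The 8 sort marker and monocyte genes were read in all 9 libraries. Of these, 2 were downregulated and none was upregulated in brain against each blood group. Mean levels in stroke blood and brain were 2498 and 894 CPM for Ly6c2 and 92238 and 40891 CPM for Lyz2. Markers of several other cell types differed between the tissues. All 10 microglia markers were upregulated in brain against stroke blood, with a summed level of 1547 to 4334 CPM in brain libraries and of 135 to 205 CPM in blood libraries, and Sall1 was at 0 in both blood groups. Of 6 dendritic cell markers, 5 were upregulated, and Itgax, which encodes the CD11c that the gate excludes, had 78.9 to 141 CPM in brain and 9.68 to 19.4 CPM in blood. All 4 tested markers of border-associated macrophages and 5 of 7 neutrophil markers were upregulated, with summed neutrophil levels of 888 to 1465 CPM in brain and 438 to 774 CPM in stroke blood. All 5 platelet and all 6 erythroid markers were downregulated, as was 1 neutrophil marker, 3 of 10 T and NK cell markers were upregulated, and 0 of 6 B and plasma cell markers were called by edgeR, with 1 at an unadjusted p below 0.05. Immediate early and dissociation genes summed to 11022 to 14477 CPM in brain and 1867 to 4306 CPM in blood, and 8 of 10 were upregulated against stroke blood. Against sham blood the same numbers of microglia, border-associated macrophage, platelet and erythroid markers were called. There 2 of 6 dendritic cell, 2 of 8 neutrophil and 5 of 10 immediate early genes were upregulated. In that comparison 1 neutrophil and 4 of 7 B and plasma cell markers were downregulated, and 0 of 10 T and NK cell markers were called. Summed neutrophil levels overlapped between sham blood (747 to 2966 CPM) and brain. Sham blood 1 stood apart from the other sham libraries: its erythroid genes summed to 1221 CPM against 34113 and 30389, and its platelet genes to 12.6 CPM against 345 and 487. Its immediate early sum was the highest of the sham libraries, 4306 CPM against 2780 and 1867. Sham blood 3 stood apart in its neutrophil markers, which summed to 2966 CPM against 747 and 936. In these bulk libraries, fewer cells of a type and less RNA per cell cannot be told apart.

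Tnfsf9 had the largest fold change of the 8 genes between brain and either blood group. Its level was 12.8, 6.91 and 12.3 CPM in the sham blood libraries, 6.56, 5.15 and 7.72 CPM in the stroke blood libraries and 125, 81.5 and 67.9 CPM in the stroke brain libraries. Every brain library was above every blood library, and the lowest brain library had 1468 counts where the highest blood library had 263. Tnfsf9 was upregulated 12.6-fold in brain against stroke blood (log2 fold change 3.66, SE 0.29, adjusted p = 4.30e-05, edgeR) and 7.83-fold against sham blood (log2 fold change 2.97, SE 0.33, adjusted p = 0.00147, edgeR). These comparisons share the brain libraries. Both calls were made in all 13 alternative analyses, in which the log2 fold change ran from 3.39 to 3.84 and from 2.69 to 3.13. Between the blood groups the log2 fold change was -0.68 (SE 0.31, adjusted p = 0.41, edgeR), and the libraries overlapped. Within the brain, Tnfsf9 was highest in replicate 1, which had the lowest microglia marker sum of the 3 (1547 CPM) and the highest dendritic cell marker sum (879 CPM). The part of these cells in the level of Tnfsf9 was not tested.

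Tnfsf9 lies on chromosome 17 at 57105385-57107757 on the plus strand of GRCm38 and has 3 exons. Of its exon length, 14.9% is shared with Gm11110, a long noncoding gene on the opposite strand. Whether the reads were counted by strand was not given in the sources used here, so reads of this stretch are uncertain. Gm11110 itself had 13 to 45 counts in the blood libraries and 27 to 116 counts in the brain libraries, against 1468 to 2338 counts of Tnfsf9 in brain.

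**Figure D1:**
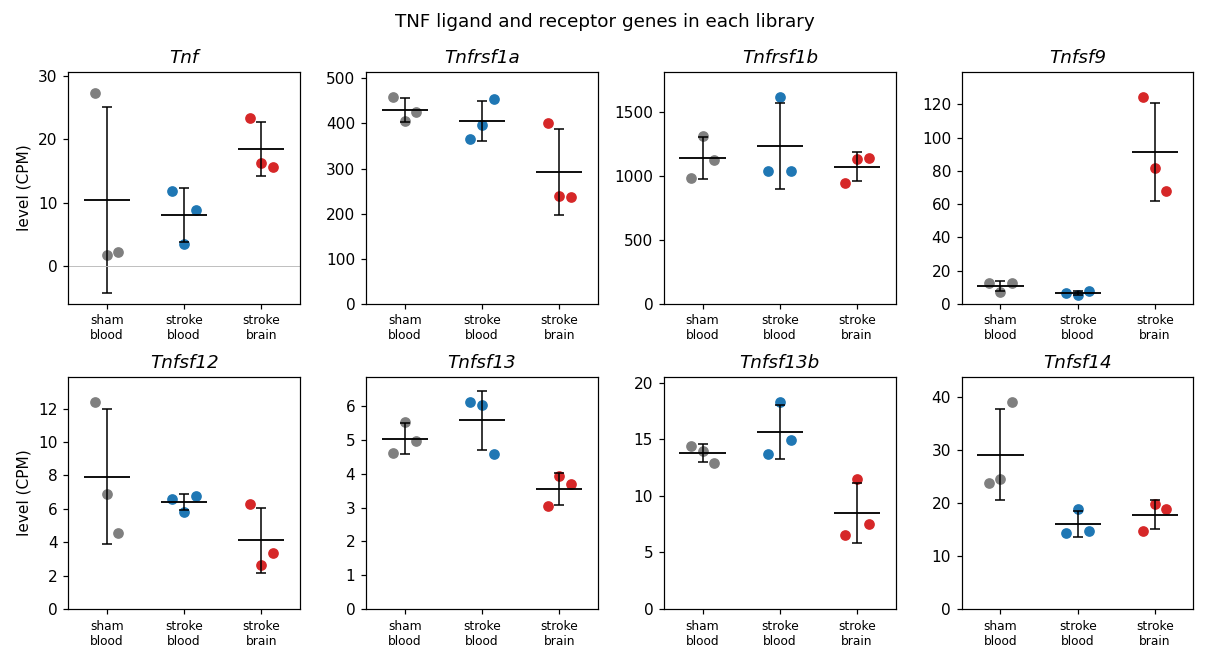
Level in CPM (linear axis, 1 scale per gene) of the 8 genes in the 9 libraries. Points are libraries, ordered within a group by replicate 1 to 3, horizontal lines are group means and bars are ±1 SD of 3 libraries; the bar of Tnf in sham blood runs below 0 because 1 library had 27.4 CPM and the others 1.69 and 2.22. The 3 brain libraries of Tnfsf9 sit between 67.9 and 125 CPM, above all 6 blood libraries.

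Tnf itself was not called in any comparison. Its level was 27.4, 1.69 and 2.22 CPM in sham blood, 11.9, 3.52 and 8.85 CPM in stroke blood and 23.4, 16.3 and 15.7 CPM in stroke brain. All 3 brain libraries were above all stroke blood libraries, whereas sham blood 1 was the highest of the 9 and the other sham libraries were the lowest. The log2 fold change of brain against stroke blood was 1.03 (SE 0.41, adjusted p = 0.0834, edgeR). DESeq2 called Tnf upregulated in this comparison, with a log2 fold change of 1.02 and an adjusted p of 0.0443, so the call depended on the test. Against sham blood the log2 fold change of brain was 0.68 (SE 0.94, adjusted p = 0.647, edgeR). Without sham blood 1 it was 3.12 with an adjusted p of 0.00252 by edgeR, so 1 library decided that call. Between stroke blood and sham blood it was -0.35 (SE 0.94, adjusted p = 0.892, edgeR), and without sham blood 1 it was 2.09 with an adjusted p of 0.122 by edgeR.

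The highest of 3 sham libraries exceeded the lowest 16.2-fold for Tnf, against at most 2.72-fold for any other member in sham blood. Within stroke blood this range was 3.37-fold and within brain 1.49-fold. The immediate early genes summed to 4306, 2780 and 1867 CPM in the sham libraries, in replicate order, and to 3228, 2676 and 3419 CPM in the stroke blood libraries. The library with the most Tnf had the highest sum in sham blood and the middle sum in stroke blood. That with the least Tnf had the middle sum in sham blood and the lowest in stroke blood. Brain replicate 1 had the highest Tnf level in brain and the lowest immediate early sum there, 11022 CPM. The part of dissociation or of cell makeup in the level of Tnf was not tested.

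**Figure D2:**
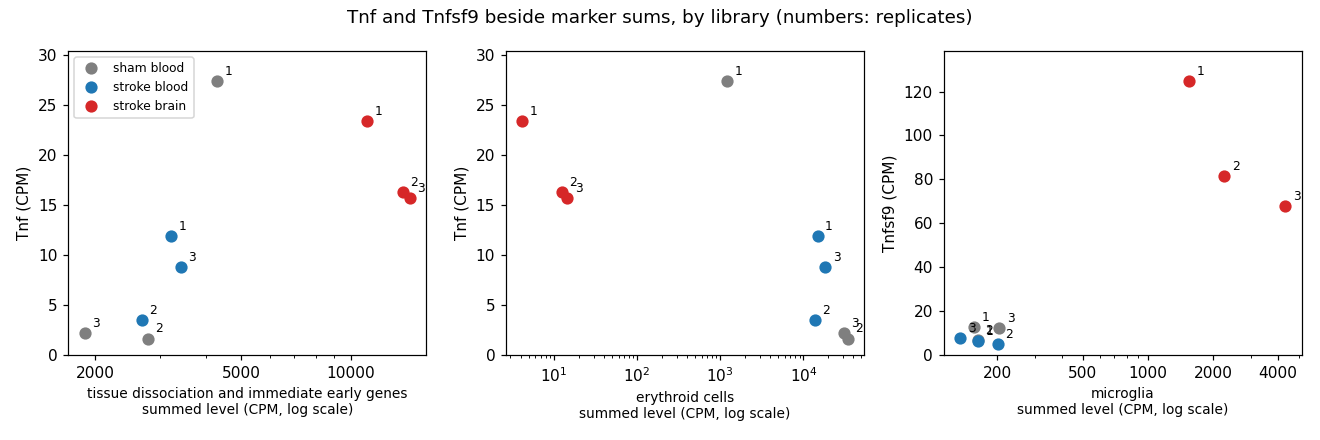
Levels of Tnf and Tnfsf9 (CPM, linear axes) beside the summed level of 3 marker lists (CPM, log axes) in the 9 libraries, with replicate numbers beside the points. Sham blood 1, at 27.4 CPM of Tnf, lies apart from the other sham libraries on the erythroid list and has the highest immediate early sum of the sham libraries. In brain Tnfsf9 is highest where the microglia sum is lowest.

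Tnf and Tnfsf9 had more than 1 AU-rich heptamer in the 3′ untranslated region (UTR), and the other members had 1 or none. Parts of these regions are shown because the heptamer TATTTAT, an AU-rich element core, is the kind of site that tristetraprolin binds. Copies were counted on the mRNA strand with overlaps allowed, and in each window below capitals mark them. Tnf (chromosome 17, 35199381-35202007, minus strand, GRCm38, 4 exons) has 8 copies in a 3′ UTR of 764 bases, and 5 of them lie in the window chr17:35199678-35199706. Of 2331 mouse genes with a 3′ UTR within 20% of that length, 19.3% hold a copy and 2, Tnf included, hold as many. Tnfsf9 has 2 copies in 253 bases, and of 1539 genes with a UTR of like length 7.8% hold a copy and 11 hold at least 2.
Tnf, chr17:35199678-35199706, minus strand: TATTTATTATTTATTTATTATTTATTTAT
Tnfsf9, chr17:57107604-57107632, plus strand: actggacttggTATTTATtctgagcatag
Tnfsf9, chr17:57107712-57107740, plus strand: atcaaagtttaTATTTATattaatatata
Tnfsf13b and Tnfsf14 have 1 copy each, in UTRs of 3631 and 1019 bases, where 58.3% and 24.8% of genes of like length have one. Tnfrsf1a, Tnfrsf1b, Tnfsf12 and Tnfsf13 have none. A copy is a match of letters and not a measured site.

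The receptor genes had the highest levels of the 8 in every group, and neither was called in any comparison. Tnfrsf1a had 459, 406 and 425 CPM in sham blood, 366, 397 and 455 CPM in stroke blood and 402, 240 and 236 CPM in brain. Brain replicates 2 and 3 were below all blood libraries, and brain replicate 1 lay within the stroke blood range. The log2 fold change was -0.63 against stroke blood (SE 0.22, adjusted p = 0.0562, edgeR) and -0.68 against sham blood (SE 0.22, adjusted p = 0.0616, edgeR), and between the blood groups it was -0.04 (SE 0.16, adjusted p = 0.923, edgeR). For brain against each blood group, none of 13 alternatives reversed the sign or called Tnfrsf1a. With 1 library left out, the log2 fold change ran from -0.91 to -0.50 against stroke blood and from -0.97 to -0.56 against sham blood. Tnfrsf1b had 983, 1310 and 1122 CPM in sham blood, 1039, 1618 and 1037 CPM in stroke blood and 943, 1131 and 1143 CPM in brain, and the groups overlapped throughout. Its log2 fold changes were -0.35, 0.15 and -0.20 in brain against stroke blood, stroke blood against sham blood and brain against sham blood, with 2 SE around them reaching from -0.75 to 0.05, from -0.26 to 0.57 and from -0.52 to 0.11.

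The ratio of Tnfrsf1b to Tnfrsf1a counts within a library does not depend on how libraries are scaled. It was 2.14, 3.22 and 2.64 in sham blood, 2.84, 4.07 and 2.28 in stroke blood and 2.35, 4.71 and 4.85 in brain. Brain replicate 1 had a ratio like those of blood, and the other brain libraries had the highest ratios of the 9. The mean log2 ratio was 1.40 ± 0.30 (SD, n = 3) in sham blood, 1.57 ± 0.42 in stroke blood and 1.92 ± 0.59 in brain. The difference between brain and stroke blood was 0.34 (p = 0.5, two-sided exact permutation test), between stroke blood and sham blood 0.18 (p = 0.6, exact permutation test) and between brain and sham blood 0.52 (p = 0.3, exact permutation test). Adjusted over the 3 comparisons, each exact permutation p was 0.6, and with 3 libraries against 3 the smallest p possible was 0.1. Tnfrsf1a lies on chromosome 6 at 125349362-125362484 (plus strand) and Tnfrsf1b on chromosome 4 at 145213463-145246870 (minus strand), both in GRCm38.

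Tnfsf13b, which encodes BAFF, was the member called lower in brain. It had 14.4, 14.0 and 12.9 CPM in sham blood, 13.7, 18.3 and 14.9 CPM in stroke blood and 6.50, 11.5 and 7.50 CPM in brain, so that each brain library was below each blood library. It was downregulated 2.04-fold against stroke blood (log2 fold change -1.03, SE 0.29, adjusted p = 0.0239, edgeR). The call sat at the fold limit: it was made in 8 of 13 alternatives, and was not made without stroke blood 2 (log2 fold change -0.96), stroke blood 3 (adjusted p = 0.0505, edgeR), brain 1 (log2 fold change -0.86) or brain 3 (log2 fold change -0.94). Against sham blood the log2 fold change was -0.81 (SE 0.27, adjusted p = 0.0723, edgeR), and without brain 2 the edgeR adjusted p was 0.0412 with a fold above 2. Between the blood groups it was 0.22 (SE 0.20, adjusted p = 0.66, edgeR). Tnfsf13b lies on chromosome 8 at 10006467-10039072 (plus strand).

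Tnfsf14, which encodes LIGHT, had 23.8, 24.6 and 39.1 CPM in sham blood, 14.4, 18.8 and 14.8 CPM in stroke blood and 14.8, 19.8 and 18.9 CPM in brain. All sham libraries were above all stroke libraries of either tissue, and the stroke groups overlapped. Of all genes tested, 14.2% had all brain libraries below all sham libraries. The same share for stroke blood was not counted, so the separation of the blood groups has no background beside it. The log2 fold change of stroke blood against sham blood was -0.83 (SE 0.24, adjusted p = 0.298, edgeR), which was not called. Against sham blood that of brain was also -0.83 (SE 0.25, adjusted p = 0.0554, edgeR). These share the sham libraries. Sham blood 3, the library with the most Tnfsf14, also had the highest neutrophil marker sum of the 9, and without it the log2 fold change of stroke blood against sham blood was -0.56. Between stroke blood and sham blood 4 of 8 neutrophil markers passed an unadjusted p of 0.05, with a list median log2 fold change of -1.80, as did 6 of 10 T and NK cell markers (median -1.37) and 4 of 7 B and plasma cell markers (median -0.83), and the part of these cells in the level of Tnfsf14 was not tested. Brain against stroke blood gave 0.00 (2 SE from -0.45 to 0.46). Tnfsf14 lies on chromosome 17 at 57189492-57194189 (minus strand).

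Tnfsf12 and Tnfsf13 lie next to each other on chromosome 11 (69686250-69695849 and 69682846-69685784, minus strand), and their values are uncertain. Of their exon length, 48.3% and 60.0% is shared with the readthrough gene Tnfsfm13 on the same strand, and Tnfsf13 shares 13.5% with the antisense gene Tnfsf13os. Tnfsf12 had 12.4, 6.86 and 4.55 CPM in sham blood, 6.56, 5.84 and 6.75 CPM in stroke blood and 6.29, 2.65 and 3.38 CPM in brain. Its log2 fold change against stroke blood was -0.80 (SE 0.39, adjusted p = 0.148, edgeR), and without brain 1 it was -1.22 with an edgeR adjusted p of 0.0296. Tnfsf13 had 4.62, 5.54 and 4.98 CPM in sham blood, 6.13, 6.03 and 4.59 CPM in stroke blood and 3.04, 3.93 and 3.70 CPM in brain. Each brain library of Tnfsf13 was below each blood library, with a log2 fold change of -0.80 against stroke blood (SE 0.33, adjusted p = 0.0969, edgeR) and -0.62 against sham blood (SE 0.29, adjusted p = 0.178, edgeR). The counts of Tnfsf12, Tnfsf13 and Tnfsfm13 summed to 196 to 390 in the sham libraries, 261 to 305 in stroke blood and 167 to 200 in brain. How reads on shared exon stretches were counted was not given in the sources used here. The sum may therefore not hold all reads of the locus.

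Over the 8 genes, 1 was called higher and 1 lower in brain against stroke blood, where 13.1% of 13189 genes were called higher and 7.86% lower. Tnf and Tnfsf9 had all brain libraries above all stroke blood libraries, as did 31.9% of all genes, and Tnfsf13 and Tnfsf13b had all below, as did 17.3%. Their median log2 fold change was -0.49, against 0.06 over all genes. In brain against sham blood, 1 member was called higher and none lower, where 9.75% of all genes were called higher and 3.67% lower. Tnfsf9 had all brain libraries above (27.4% of all genes) and Tnfrsf1a, Tnfsf13, Tnfsf13b and Tnfsf14 had all below (14.2%). In stroke blood against sham blood edgeR called 0 members, and 0.0079% of all genes were called higher and 0% lower. DESeq2 called 0 members there too. At an unadjusted edgeR p below 0.05, 1 member passed, where 12.5% of all genes did.

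**Figure D3:**
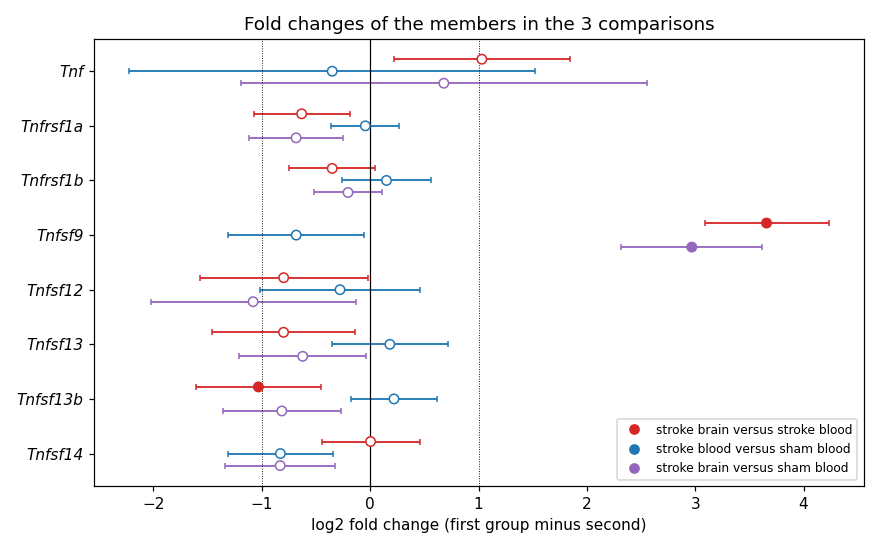
Log2 fold changes of the 8 genes in the 3 comparisons (edgeR, first group minus second), with bars of ±2 SE; filled points were called and dotted lines mark a fold change of 2. Tnfsf9 lies at 3.66 and 2.97 in the comparisons with brain, Tnfsf13b at -1.03 against stroke blood, and the widest bars are those of Tnf in both comparisons with sham blood.

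Divided by exon length (CPM per kb), the receptor genes kept the same order in all 3 groups and the ligand genes did not. Tnfrsf1b led in every group with 298 ± 43.0, 323 ± 87.7 and 281 ± 29.4 CPM per kb (SD, n = 3) in sham blood, stroke blood and brain, followed by Tnfrsf1a with 166 ± 10.4, 157 ± 17.3 and 113 ± 36.6 CPM per kb. In both blood groups Tnfsf14 came next (15.8 ± 4.65 and 8.67 ± 1.32 CPM per kb) and Tnfsf9 after it (8.27 ± 2.53 and 5.02 ± 1.00 CPM per kb), and the libraries of these neighbours did not overlap. In brain Tnfsf9 came next after the receptors, with 70.8 ± 23.0 CPM per kb, above all libraries of Tnf (11.3 ± 2.60 CPM per kb). The ranges of Tnfsf9 and Tnfrsf1a overlapped in brain, but within each brain library Tnfrsf1a was higher. In replicate order, Tnfrsf1a had 155, 92.6 and 91 CPM per kb and Tnfsf9 had 96.6, 63.2 and 52.7 CPM per kb. Tnf and Tnfsf14 overlapped in brain, as did Tnfsf9, Tnf and Tnfsf12 as neighbours in both blood groups. Tnfsf13b was the lowest in every group, with 2.01, 2.28 and 1.24 CPM per kb.

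The genes with the most similar profiles were ranked by the root mean square difference of centred log2 CPM over the 9 libraries. Nearest to Tnfsf9 were Pclaf (0.24), Got1 (0.39) and Sat2 (0.39, at most 0.714 CPM in a group mean), where the profile of Tnfsf9 itself had a root mean square of 1.60. Nearest to Tnf were Gm14023 (0.71), Myh10 (0.72) and Slc7a11 (0.72), against 1.35 for Tnf itself, a wide gap. Gm14023 and Myh10 were low, at most 2.47 and 4 CPM in a group mean. Nearest to Tnfrsf1a were Zyx (0.11), Pik3r6 (0.12) and Cnppd1 (0.15), and to Tnfrsf1b were Keap1, Sh2d3c and Hps3 (0.13 each). The profiles of Tnfrsf1a and Tnfrsf1b themselves had root mean squares of only 0.40 and 0.24. Tnfsf12 was nearest to Ctbp2 (0.14), Irf2 (0.20) and Slc16a10 (0.21), and Tnfsf13 to Gatd1 (0.07), Mpp1 (0.08) and Lims1 (0.11). Tnfsf13b was nearest to Smug1, Ip6k3 (0.15 each) and Cbll1 (0.17), and Tnfsf14 to Tbl1x (0.19), Vipas39 and Fbxl5 (0.21 each). All 9 points share the grouping by tissue.

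Of the 9 receptors of the member ligands, 1 was upregulated in brain against stroke blood and none was downregulated, a share near the 13.1% of all genes called higher. Tnfrsf12a, the TWEAK receptor, had 8.17, 6.11 and 5.25 CPM in sham blood, 5.11, 6.17 and 7.23 CPM in stroke blood and 41.5, 26.0 and 18.4 CPM in brain. All brain libraries were above all blood libraries, with a 4.15-fold rise against stroke blood (adjusted p = 0.00169, edgeR) and a 4.02-fold rise against sham blood (adjusted p = 0.00709, edgeR). Tnfrsf9, the receptor CD137 of the Tnfsf9 ligand, had 15.9, 28.6 and 16.5 CPM in brain and 1.57 to 12.9 CPM in the blood libraries, and did not pass (log2 fold change 1.48 against stroke blood, adjusted p = 0.0838, edgeR). Ltbr, which encodes a receptor of LIGHT, had a log2 fold change of -0.86 against stroke blood (adjusted p = 0.0118, edgeR), under the fold limit, with 68.7 to 113 CPM in brain and 123 to 167 CPM in blood. Tnfrsf14, the other LIGHT receptor, had 6.54 to 8.74 CPM in brain, 8.02 to 20.6 CPM in stroke blood and 6.77 to 8.69 CPM in sham blood. Among the receptors of BAFF and APRIL, Tnfrsf13b had 66.3 to 143 CPM over the 9 libraries and was not called. Tnfrsf13c had 3.79 to 11.6 CPM in sham blood, 0.603 to 3.28 CPM in stroke blood and 2.61 to 5.74 CPM in brain. It was not called by edgeR in any comparison, and DESeq2 called it between stroke blood and sham blood. Tnfrsf17 had at most 5 counts in any blood library and 9, 23 and 23 counts in brain, and was called higher against sham blood (adjusted p = 0.035, edgeR) and not against stroke blood (adjusted p = 0.0506, edgeR).

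Most other ligand genes of the superfamily were too low to test: 5 of 12 passed the filter in brain against stroke blood, and 1 of them was upregulated. Fasl, which encodes the ligand of the death receptor Fas, had 29.5, 23.7 and 21.7 CPM in brain, above all blood libraries (4.05 to 13.2 CPM), a 2.99-fold rise against stroke blood (adjusted p = 0.0168, edgeR) and 2.76-fold against sham blood (adjusted p = 0.0221, edgeR). Genes of T and NK cells, which also express Fasl, summed to 433 to 869 CPM in brain and 161 to 582 CPM in blood, and their part was not tested. Of 19 receptors other than Tnfrsf1a and Tnfrsf1b that were tested, 4 were upregulated and 1 was downregulated, against 13.1% and 7.86% of all genes. These include Tnfrsf12a and the other receptors of member ligands described above. Tnfrsf4, which encodes the T cell receptor OX40, was at 8.26, 5.26 and 5.92 CPM in brain and at most 0.971 CPM in blood (10.7-fold against stroke blood, adjusted p = 0.00706, edgeR). Tnfrsf18, which encodes GITR, was at 9.55 to 11.8 CPM in brain and 0.778 to 3.10 CPM in blood (5.54-fold, adjusted p = 0.00169, edgeR), with 27.2% of its exon length shared with an antisense gene. Tnfrsf8, which encodes CD30, fell from 7.70 to 9.50 CPM in stroke blood to 1.33 to 4 CPM in brain (log2 fold change -1.74, adjusted p = 0.013, edgeR). Against sham blood 5 of 20 tested receptors, among them Tnfrsf17, were called higher and 2 lower, where 9.75% and 3.67% of all genes were. Of the others, Tnfrsf11a, which encodes the RANKL receptor, rose 4.43-fold (adjusted p = 0.0123, edgeR), and Fas had 20.3 to 25.2 CPM in brain and 42.6 to 63.0 CPM in sham blood (log2 fold change -1.25, adjusted p = 0.0063, edgeR). Without sham blood 3 the number called higher was 2, and without brain 2 or brain 3 it was 3.

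Of 19 tested genes that shed TNF or control its mRNA, 2 were upregulated and 1 was downregulated in brain against stroke blood, shares near those of all genes (13.1% and 7.86%). Hnrnpd, which encodes the AU-rich element binding protein AUF1, had 141 to 164 CPM in brain and 10.0 to 54.6 CPM in blood (3.96-fold against stroke blood, adjusted p = 0.00348, edgeR). Zfp36l1, a relative of Zfp36, rose 3.10-fold (adjusted p = 0.00304, edgeR) and shares 55.9% of its exon length with an opposite-strand noncoding gene. Sppl2a, which encodes a protease that cleaves the membrane stub of TNF, fell from 177 to 235 CPM in stroke blood to 61.8 to 119 CPM in brain (log2 fold change -1.33, adjusted p = 0.00279, edgeR). In sham blood Sppl2a had 131 to 144 CPM, and neither Sppl2a nor Zfp36l1 was called against sham blood. Adam17 had 176 to 216 CPM in brain, 98.9 to 166 CPM in stroke blood and 173 to 185 CPM in sham blood, and was not called. Zfp36 was at 1114 to 1396 CPM in brain and 412 to 1360 CPM in blood, and sham blood 1 was the highest blood library for it as for Tnf. Against sham blood Hnrnpd rose 7.75-fold and Rhbdf1, which encodes a rhomboid-like protein that escorts ADAM17, rose 2.74-fold (adjusted p = 0.00257 and 0.0434, edgeR). Rhbdf1 was low, with 3.23 to 6.29 CPM in brain and 1.27 to 1.65 CPM in sham blood. Rhbdf2, on the same list, had a mean of 113 CPM in brain and 103 CPM in sham blood and was not called.

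In the list of proteins that gather at TNFR1 and carry its signal, 5 of 27 genes were upregulated and 1 was downregulated in brain against stroke blood, where 13.1% of all genes were called higher and 7.86% lower. Tnfaip3, which encodes the NF-kappaB inhibitor A20, had 25.8, 21.0 and 13.3 CPM in sham blood, 22.3, 26.3 and 18.9 CPM in stroke blood and 367, 203 and 198 CPM in brain. Every brain library was above every blood library, a 10.2-fold rise against stroke blood (adjusted p = 4.85e-05, edgeR) and 11.7-fold against sham blood (adjusted p = 8.25e-04, edgeR). Otulin, which encodes a deubiquitinase of linear chains, rose 7.70-fold against stroke blood (adjusted p = 2.89e-04, edgeR). In the sham blood libraries Otulin varied widely, with 8.08, 91.3 and 26.7 CPM, and it was not called against sham blood. Traf1, which encodes an adaptor induced by NF-kappaB, rose 5.56-fold against stroke blood (adjusted p = 3.99e-04, edgeR). Tnip3, which encodes a partner of A20, was at 24.2 to 33.3 CPM in brain and 3.14 to 7.33 CPM in blood. Tab2, which encodes an adaptor of the kinase TAK1, was the gene called lower (log2 fold change -1.07, adjusted p = 0.0189, edgeR). Its mean level was 36.7 CPM in brain, 68.8 CPM in stroke blood and 36.4 CPM in sham blood, and against sham blood the log2 fold change of brain was -0.11 (adjusted p = 0.777, edgeR). The list's median log2 fold change was 0.30, against 0.06 over all genes. Of 10 genes of the cell death branch, Xiap, an inhibitor of caspases, was downregulated (log2 fold change -1.30, adjusted p = 0.00872, edgeR), and none was upregulated. Its mean level was 18.9 CPM in brain, 41.6 CPM in stroke blood and 25.2 CPM in sham blood. Against sham blood 3 of the 27 and none of the 10 were called, all 3 higher. Of all genes, 9.75% were called higher and 3.67% lower in that comparison.

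Of 24 genes known as targets of TNF that were tested in brain against stroke blood, 13 were upregulated and none was downregulated, with a median log2 fold change of 1.77. Over all genes 13.1% were called higher and 7.86% lower, with a median of 0.06. With 1 library left out, 11 to 15 target genes were upregulated. Ptgs2, which encodes the prostaglandin enzyme COX-2, had 117, 94.6 and 79.0 CPM in brain and at most 2.77 CPM in blood, in sham blood 1 (124-fold against stroke blood, adjusted p = 9.55e-07, edgeR). Cebpb, which encodes a transcription factor of macrophage activation, had 957, 1556 and 1455 CPM in brain and 17.5 to 49.1 CPM in blood (33.8-fold, adjusted p = 3.22e-05, edgeR), with 20.7% of its exon length shared with an opposite-strand gene. Vcam1, which encodes an adhesion molecule, had 138, 185 and 271 counts in brain and 0 counts in every stroke blood library. Set against a floor of 3 counts per library, it was at least 63.0-fold higher in brain. Against sham blood 12 of 24 were upregulated, 7 without sham blood 2, where 9.75% of all genes were. Many of these genes respond to other signals as well as to TNF, and 1 of them, Junb, is also on the list of 10 immediate early genes given above. The part of dissociation in the levels of the target genes, on that list or not, was not tested. Between stroke blood and sham blood 0 genes of any of these lists were called by edgeR, and at an unadjusted p below 0.05 there were 1 of 5 ligands, 3 of 18 receptors, 2 of 19 genes of TNF shedding and mRNA control, 2 of 27 TNFR1 complex genes, 1 of 10 cell death genes and 2 of 23 targets, where 12.5% of all genes passed. DESeq2 called 1 gene of these lists there, Tnfrsf13c.

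**Figure D4:**
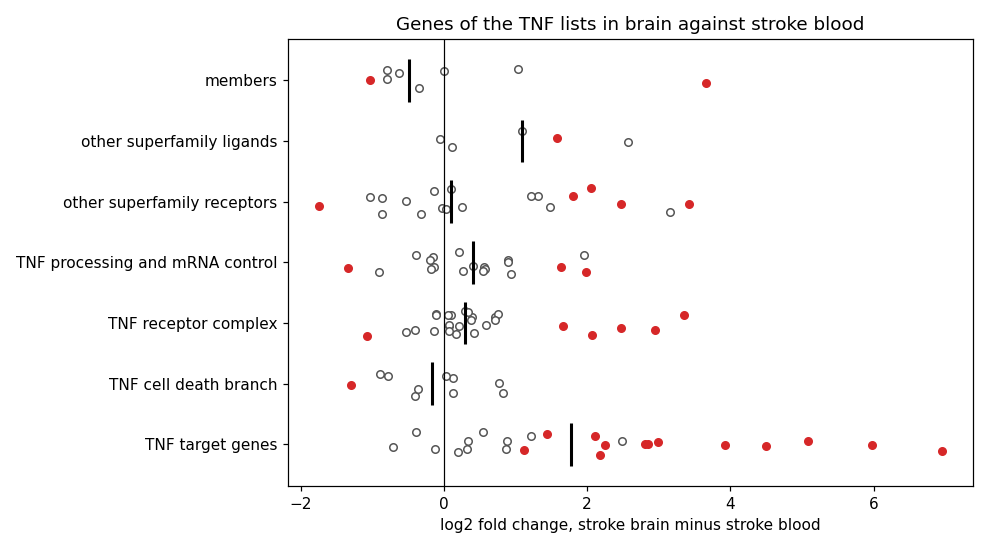
Log2 fold changes of brain against stroke blood (edgeR) for the tested genes of each list, 1 point per gene with vertical jitter; red points were called and black bars are list medians. Vcam1 is drawn at its lower bound against 3 counts per library. The target genes reach furthest to the right and have a median of 1.77, and the 8 members have a median of -0.49.

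Promoter sequence from RefSeq (GRCm38.p6) was found for 6 of the 8 members, in 7 windows of 250 bases before a transcript start. None of the 7 held the NF-kappaB consensus site on either strand, which 3.9% of 32851 mouse promoter windows of this length held. The AP-1 motif TGANTCA, searched on both strands, was in 1 window each of Tnfsf13, Tnfsf13b and Tnfsf14 (6.75% of all windows), and TATAAA on the gene's strand was in that of Tnf (7.59% of all windows), 29 bases before the start. Windows of Tnf, of Tnfaip3 and of Nfkbia, an NF-kappaB inhibitor gene that was upregulated 2.17-fold in brain against stroke blood (adjusted p = 0.00365, edgeR), are shown to set a member beside genes of its pathway that were called. Capitals mark the matches to any of these 3 motifs. The Tnfaip3 window shown ends 247 bases from the gene start in the count tables and holds 2 NF-kappaB matches and 1 each of the others, a further window of Tnfaip3, at a start 3694 bases from the gene start, holds none of the 3 motifs, and that of Nfkbia holds 1 NF-kappaB match.
Tnf, chr17:35202008-35202257, minus strand: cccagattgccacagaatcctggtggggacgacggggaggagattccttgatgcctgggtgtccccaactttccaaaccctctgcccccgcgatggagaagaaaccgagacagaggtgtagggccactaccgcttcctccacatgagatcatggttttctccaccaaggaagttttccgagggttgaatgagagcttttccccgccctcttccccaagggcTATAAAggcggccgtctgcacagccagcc
Tnfaip3, chr10:19015411-19015660, minus strand: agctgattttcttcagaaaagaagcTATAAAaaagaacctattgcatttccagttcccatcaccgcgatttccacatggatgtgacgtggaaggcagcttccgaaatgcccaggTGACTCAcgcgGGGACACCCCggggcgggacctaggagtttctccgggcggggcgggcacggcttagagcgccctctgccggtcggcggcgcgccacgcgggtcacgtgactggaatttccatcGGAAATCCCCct
Nfkbia, chr12:55492648-55492897, minus strand: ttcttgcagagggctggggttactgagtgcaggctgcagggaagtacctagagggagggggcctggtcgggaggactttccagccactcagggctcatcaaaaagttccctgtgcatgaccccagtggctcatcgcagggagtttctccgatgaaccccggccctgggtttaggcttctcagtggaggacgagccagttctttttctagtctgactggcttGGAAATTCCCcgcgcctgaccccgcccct
A match in letters is a description of the window, and no match says only that these letters were not in these bases. For Tnfsf9 and Tnfsf12 no window is shown.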

How the data were processed

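Messenger RNA of sorted cells was amplified with SMART-Seq HT, made into Nextera XT libraries and sequenced as paired 75-base reads. Per the submitters' processing notes and methods, the authors aligned reads with HISAT2 to GRCm38 and deposited raw HTSeq counts per Ensembl gene, 1 table per library; the versions, the annotation release and the strand setting are not given in the sources used here.

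Ensembl identifiers were matched to symbols and exon lengths of GENCODE M21 (53706 of 53801). Counts were tested with edgeR 4.0.16 in R 4.3.3 (TMM scaling, filterByExpr, quasi-likelihood test, 2 groups per fit, Benjamini-Hochberg adjustment over all genes tested). DEGs had an adjusted p below 0.05 and a fold change above 2. DESeq2 1.42.0, which the authors used, other scalings, no filter, all 9 libraries in 1 fit, a replicate block, other thresholds and leaving out each library were alternatives. The scripts were tested on simulated counts. No pair of replicates matched within sampling noise. Between brain libraries, chi-square per degree of freedom was 82.7 and 88.6 for the pairs with brain 1 and 26.2 for brain 2 and 3. It was 35.9 to 83.1 within stroke blood and 50.4 to 151.8 within sham blood, where the pairs with sham blood 1 were the highest. Replicate numbers did not pair the libraries, with correlations of same-numbered deviations between -0.07 and 0.07. The members and gene lists were chosen with earlier results of these data known. Named genes were all members, the receptors of the member ligands, the 3 largest called rises and falls of each list per comparison, and the 3 nearest profiles of each member; other genes named were chosen after their values were seen.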

Additional observations from a re-analysis of the deposited data

How the results depend on the processing

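Of 312 alternative log2 fold changes of single members, 286 kept their direction and their side of the threshold, 16 reversed, 5 gained and 5 lost a call; the cause was not tested. DEG counts at an adjusted p below 0.01 were 1793, 0 and 792 (brain against stroke blood, stroke blood against sham blood, brain against sham blood). Stroke blood against sham blood had 1 DEG, 135 with DESeq2, 160 with no filter and 0 to 16 with 1 library left out, and brain against sham blood had 1748, and 1146 to 1883 with 1 left out (1146 without sham blood 3). Members called in brain against stroke blood were 2, and 3 by DESeq2 (Tnf as well), 1 by library size alone, 1 at an adjusted p below 0.01 and 1 to 2 with 1 left out; against sham blood they were 1 to 2 with 1 left out. With 1 left out, target genes called higher against sham blood were 7 to 12, and other receptors 2 to 5, in alternatives chosen after seeing the data. Tnfsf14 in brain against stroke blood, at 0.00, turned to -0.004 (DESeq2), -0.024 (RLE scaling), -0.142 (upper-quartile scaling), -0.001 (no filter) and -0.025 (all 9 libraries), and ran from -0.099 to 0.136 with 1 left out. In stroke blood against sham blood, Tnf turned to 0.616 with the replicate block and ran from -0.864 to 2.092 with 1 left out, Tnfrsf1a turned to 0.028 by upper-quartile scaling and ran from -0.161 to 0.014, Tnfrsf1b ran from -0.107 to 0.247, Tnfsf12 from -0.561 to 0.209 and the receptor ratio difference from -0.049 (without stroke blood 2) to 0.370. The replicate block, for numbers that did not pair the libraries, gave 2634, 1 and 1571 DEGs and 3, 0 and 1 members, Tnf among them in brain against stroke blood. Library size alone shifted the median log2 fold change of all genes by 0.15 and upper-quartile scaling by -0.15 in brain against stroke blood, where 72.2% and 52.7% of calls were higher against 62.6%. The 3 libraries a group and the low counts of Tnfsf12 and Tnfsf13 (57 to 254) limit the precision of the smaller changes.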
